A study of Mus musculus with 8 samples.

Results

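The Gata genes encode 6 zinc finger transcription factors, Gata1 to Gata6, and all 6 were measured in dorsal pancreatic epithelium of mouse embryos with and without Sox9. They were found by gene name on a whole-genome array, which held 10 probes for them, on 28 spots, among 41174 probes in all. Gata1 had 1 probe, Gata2 had 2, Gata3 had 1, Gata4 had 2, Gata5 had 1 and Gata6 had 3. Of the 6 genes 0 passed the test between genotypes, where 5.37% of all genes tested did, a share at which none of so few genes need pass. Gata6 differed little between the genotypes while most genes of pancreatic progenitors and of epithelium fell in the same samples. Gata4 also differed little, but its probes were dim, and the dimmer one was near background on some arrays. Gata2 and Gata5 had higher means in the mutant without passing the test.

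The samples were dorsal pancreatic epithelia dissected at stage e12.5. The mutant embryos carried floxed Sox9 alleles on both chromosomes (Sox9fl/fl) and the Pdx1-Cre transgene, which is active in the Pdx1-expressing epithelium of the pancreas and removes Sox9 there, and the wild-type embryos were Sox9fl/fl littermates without Cre. The flox line was on a mixed FVB/N and C57Bl/6J background and the Cre line on C57Bl/6J, per the labels. Each genotype had 4 samples, each a pool from 3 embryos hybridised to an array of its own. The series text counts 3 biological replicates, and the labels do not say how the fourth pool arose, so p-values measure the spread between these pools. Genotype and the presence of Cre cannot be told apart.

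Gata factors bind DNA through a pair of zinc fingers that recognise the sequence GATA. Gata1, Gata2 and Gata3 are best known from blood cells, and Gata2 also from endothelium and Gata3 from T cells, kidney and sympathetic neurons. Gata4, Gata5 and Gata6 are best known from heart, gut and other endoderm organs, and Gata4 and Gata6 are needed together for growth of the mouse pancreas. Early in pancreas development Gata4 and Gata6 are made in the epithelium, and both are also known from mesenchyme or mesothelium of this region.

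The first 30 bases of 7 of the 60-base probes are shown because each value below rests on how a single oligonucleotide binds its transcript, and members of a family can share sequence. No part stands out, so all letters are in lower case.
Gata1 A_52_P670095: gcgtgatcgccccactcagttcttgaaggt
Gata2 A_51_P516625: ctagtacccgcataagagaagaatcggcag
Gata2 A_52_P233441: aactgcataagcttaacccgctgatgagtg
Gata3 A_52_P546363: ataaactagattgctttcagttgacttaag
Gata4 A_51_P492355: gaagcccaccttggctgcaagcacagcaca
Gata4 A_52_P4201: ctagaaaatacagactgtttgcaaaataaa
Gata5 A_51_P213260: cacagctgtgcacaaggtcatagcaccatg
Over the full probes, the longest run of bases shared by probes of different Gata genes, on either strand, was 10 bases in 40 pairs. Probes were compared with each other and not with the transcripts of other Gata genes, so binding to those transcripts was not tested. On mouse assembly mm8, as the scanner files list them, the Gata1 probe lies at chrX:7116682-7116741, the Gata2 probes at chr6:88172482-88172541 and chr6:88172009-88172068, and the Gata3 probe at chr2:9775209-9775268. The Gata4 probes lie at chr14:62153025-62153046, a listed span of 22 bases for a probe of 60, and at chr14:62153420-62153479. The Gata5 probe lies at chr2:180254926-180254985. The Gata2 probes are on the plus strand and the other probes shown on the minus strand. Their place in exons or untranslated regions was not analysed here.

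Between 59.4% and 77.7% of non-control spots were marked well above background on an array, and the 75th percentile of signal ran from 372 to 640. Levels are given as log2 signal, where 0 is the 75th percentile of that array, and levels of different probes are not compared. The deleted gene, Sox9, read 1.82 to 3.01 on the wild-type arrays and -1.79 to 0.77 on the mutant arrays, and its log2 level fell by 2.70 with an SE of 0.517 (limma, adjusted p = 0.0252). The labelled tissue was checked against its markers: Pdx1 and Cdh1 were well above background on all 8 arrays, and so were genes of mesenchyme such as Pdgfra. In pooled tissue, fewer cells of a type and less RNA per cell cannot be told apart. Of the 3 slides, the first carried 1 array of each genotype (wild-type 2, mutant 3), the second 1 wild-type and 2 mutant arrays (wild-type 3, mutants 1 and 4), and the third the rest (wild-type 1 and 4, mutant 2). The Y-linked gene Ddx3y was at -6.85, -4.86 and -7.44 in wild-type replicates 1, 2 and 4, at -0.82 in wild-type replicate 3 and between -1.37 and 0.11 in the mutant pools, and the part of embryo sex in the results was not tested.

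All 10 Gata probes passed the filter on dim probes, and 8 of them were well above background on all 8 arrays. In limma, 0 of the 6 genes had an adjusted p under 0.05, where 5.37% of all genes did (1.55% higher and 3.82% lower in the mutant), and 0 of the 10 probes did, where 3.75% of all probes did. The smallest adjusted p was 0.121 among genes and 0.145 among probes. At an unadjusted p under 0.05 there were 2 of 6 genes, Gata2 and Gata5, both higher in the mutant, where 18.8% of all genes had such a p and 8.88% had it with a higher mutant mean, and 3 of 10 probes, where 16.7% of all probes did. The median log2 difference of the 6 genes was 0.30, beside 0.016 for all 18506 genes tested, and 4 of the 6 lay above 0. The groups did not separate fully for any Gata gene, while 7.22% of all genes had every mutant value above every wild-type value and 7.99% had the reverse. Among all probes 6.06% had every mutant value above every wild-type value, and no Gata probe did.

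**Figure D1:**
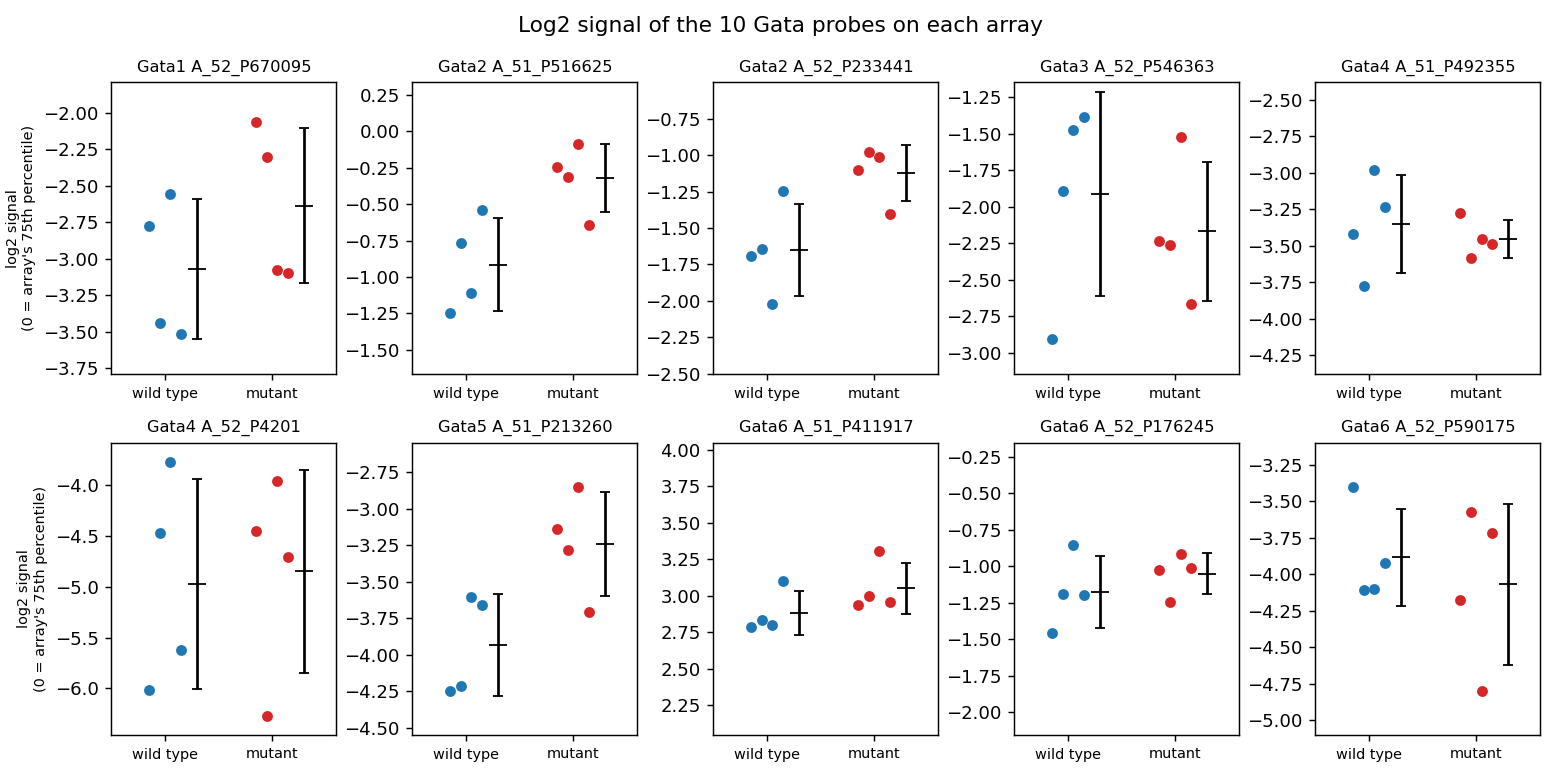
Log2 signal of each of the 10 Gata probes (y axis, 0 is the array's 75th percentile) in 4 wild-type and 4 mutant samples (x axis); points are arrays in order of replicate number, and bars are the mean and SD. The groups overlap for every probe, and the Gata2 and Gata5 probes have a single mutant array, replicate 4, inside the wild-type range.

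Gata6, an endoderm and heart factor mutations of which cause absence of the pancreas in people, had the smallest standard error of the 6 genes. Its probes lie on the plus strand at chr18:11085039-11085097, chr18:11064511-11064570 and chr18:11054534-11054593. Wild-type arrays 1 to 4 read 2.79, 2.84, 2.80 and 3.102 for its probe of highest signal (A_51_P411917), and mutant arrays 1 to 4 read 2.93, 2.997, 3.31 and 2.96. Wild-type replicate 4 lay above 3 of the 4 mutant samples, and the other wild-type samples lay below all of them. Wild-type pools averaged 2.88 ± 0.15 (SD, n = 4) and mutant pools 3.05 ± 0.17 (SD, n = 4). They differed by 0.17 with an SE of 0.130. The adjusted p was 0.600 from limma and the exact permutation p was 0.200. Its 95% interval ran from -0.13 to 0.47, which is from 1.09-fold lower to 1.38-fold higher. The difference was 0.083 without mutant replicate 3, 0.036 with the mean of the probes of the gene and 0.032 with array weights.

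The other Gata6 probes gave differences of either sign near 0. Probe A_52_P176245 had log2 signals between -1.46 and -0.85 in wild-type and between -1.25 and -0.92 in mutant samples, a difference of 0.12 (95% interval -0.22 to 0.47, adjusted p = 0.820 in limma). Probe A_52_P590175, the dimmest of the 3, was not well above background in mutant replicate 3, where it stood at -4.80, while the other mutant values ran from -4.18 to -3.58 and the wild-type values from -4.11 to -3.40. Its difference was -0.19 (95% interval -0.84 to 0.47, adjusted p = 0.872 in limma), and it turned to 0.058 without mutant replicate 3.

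Gata4, the partner of Gata6 in the endoderm, was represented by the probe A_51_P492355. On the log2 scale the wild-type arrays, in order of number, read -3.42, -3.78, -2.98 and -3.24 and the mutant arrays -3.27, -3.59, -3.45 and -3.49. All mutant values lay inside the wild-type range. Wild-type pools averaged -3.35 ± 0.34 (SD, n = 4) and mutant pools -3.45 ± 0.13 (SD, n = 4). They differed by -0.097 with an SE of 0.176. The adjusted p was 0.874 from limma and the exact permutation p was 0.571. The interval of -0.50 to 0.31 runs from 1.41-fold lower to 1.24-fold higher. The sign was not fixed, since the difference was 0.063 after quantile normalization and 0.027 without wild-type replicate 3.

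The other Gata4 probe (A_52_P4201) was printed on 10 spots of each array and was near background on some of them. None of its spots was well above background in wild-type replicate 1 or mutant replicate 2, and 1 of 10 was in wild-type replicate 4, while 9 or 10 were on the other 5 arrays. Wild-type pools 1 to 4 stood at -6.02, -4.47, -3.78 and -5.62 and mutant pools 1 to 4 at -4.46, -6.27, -3.96 and -4.71. The SD between its spots within an array ran from 0.074 to 0.552, and the SD between arrays was 1.03 in wild-type and 0.995 in mutant samples. The 3 arrays with low values, wild-type 1 and 4 and mutant 2, are those of slide 3, and with slide as a fixed block the difference turned to -0.32. Without the block the difference of 0.12 had an interval of -1.29 to 1.53 (adjusted p = 0.967 in limma).

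Gata5, known from heart and gut, had a higher mean in the mutant samples and did not pass the test. Levels in wild-type pools 1 to 4 were -4.25, -4.22, -3.60 and -3.66, and those in mutant pools 1 to 4 were -3.14, -3.28, -2.85 and -3.71. Mutant replicate 4 lay below wild-type replicates 3 and 4, and the other 3 mutant samples lay above every wild-type sample. Wild-type pools averaged -3.93 ± 0.35 (SD, n = 4) and mutant pools -3.24 ± 0.36 (SD, n = 4). They differed by 0.69, or 1.61-fold, with an SE of 0.229 and a 95% interval of 0.16 to 1.21. The adjusted p was 0.136 from limma and the exact permutation p was 0.0857. The probe was dim but well above background on all 8 arrays, and the size moved with the processing, to 0.32 with normexp background correction and to 0.90 with quantile normalization, the smallest and largest of 19 other settings. Of the 22 fixed stomach and intestine genes, which mark tissue next to the pancreas, 13 were tested and the gut factors Cdx1, Cdx2 and Sox2 were among the 9 too dim for it. Of the 13, 10 lay above 0, with a median difference of 0.33. The epithelial genes Vil1 and Tff3 fell by 0.96 and fell by 0.82, none rose and 11 did not pass. Among all genes tested 3.82% fell and 1.55% rose. The list's summed signal, in units of the array's 75th percentile, ran from 5.77 to 9.92 in wild-type and 10.9 to 13.9 in mutant samples. Such a sum, here and for the other lists, adds linear signals, so the brightest genes weigh most in it. Its mean log2 level overlapped between genotypes, from -2.63 to -1.65 in wild-type and from -2.13 to -1.65 in mutant samples. The part of this tissue in the Gata5 values was not tested. Relative to the mean of the list, a quantity chosen after seeing the data, Gata5 differed by 0.40, a description with no test.

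Gata2, a factor of blood progenitors, mast cells and endothelium, had higher means in the mutant on both of its probes. The first of them is A_51_P516625. In order of number, the wild-type pools stood at -1.24, -0.77, -1.11 and -0.54 and the mutant pools at -0.25, -0.31, -0.087 and -0.65. The groups overlapped only through mutant replicate 4, which lay below wild-type replicate 4. Wild-type pools averaged -0.92 ± 0.32 (SD, n = 4) and mutant pools -0.32 ± 0.23 (SD, n = 4). They differed by 0.59, or 1.51-fold, with an SE of 0.189 and a 95% interval of 0.16 to 1.03. The adjusted p was 0.121 from limma and the exact permutation p was 0.0571.

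Its second probe (A_52_P233441) repeated the pattern, although 2 probes of a gene on the same arrays are not independent. Wild-type arrays 1 to 4 read -1.69, -1.64, -2.02 and -1.25 for this probe, and mutant arrays 1 to 4 read -1.10, -0.98, -1.01 and -1.40. The difference was 0.53 (95% interval 0.11 to 0.94, adjusted p = 0.170 in limma), again with mutant replicate 4 below wild-type replicate 4. Wild-type replicate 3 was the wild-type pool whose Ddx3y level lay in the mutant range. In it both Gata2 probes were below all 4 mutant values, and Gata5 was above mutant replicate 4 and below the others. Gata1 was above mutant replicates 3 and 4 and below the others. Gata3 and the Gata4 probe A_51_P492355 were above all mutant values, and the Gata6 probe A_51_P411917 was below all of them. This is 1 pool, and the part of embryo sex in these values was not tested.

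Of the cell types that express Gata2, endothelium had higher markers in the mutant samples as well. All 21 endothelium genes tested had a difference above 0, with a median of 0.41 beside 0.016 for all genes. There were 2 that passed, where 1.55% of all genes passed as higher in the mutant. Emcn, a sialomucin of vessels, rose by 0.67 and Eng, a receptor of the Tgf-beta family, rose by 0.54. The summed endothelial signal ran from 78.4 to 85.4 in wild-type and from 94.7 to 133 in mutant samples. Relative to the mean of the endothelium list on the same array, Gata2 differed by 0.18 between genotypes. That value is a description with no test, because the list was itself higher in the mutant samples. Of 10 mast cell genes, 8 were tested, with Ms4a2 and Tpsab1 too dim. The carboxypeptidase Cpa3 rose by 1.75 and 7 did not pass, beside the same 1.55% of all genes. Of the 8, 6 lay above 0, and the median was 0.24. The summed mast cell signal ran from 2.05 to 2.29 in wild-type and from 2.55 to 4.29 in mutant samples, while the mean log2 level of the list overlapped between genotypes, from -3.11 to -2.62 and from -2.76 to -2.01. The part of these cells in the Gata2 values was not tested.

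Gata1, the X-linked factor of red cells, megakaryocytes and mast cells, varied among the pools of both genotypes. On the log2 scale the wild-type arrays, in order of number, read -2.78, -3.44, -2.55 and -3.52 and the mutant arrays -2.07, -2.30, -3.08 and -3.10. Mutant replicates 1 and 2 lay above every wild-type sample, and mutant replicates 3 and 4 lay inside the wild-type range. Wild-type pools averaged -3.07 ± 0.48 (SD, n = 4) and mutant pools -2.64 ± 0.53 (SD, n = 4). They differed by 0.44 with an SE of 0.317 and a 95% interval of -0.29 to 1.16. The adjusted p was 0.569 from limma and the exact permutation p was 0.286. The size was not stable: it was 0.25 without mutant replicate 1, 0.29 without wild-type replicate 4, 0.23 with normexp background correction and 0.83 with array weights, none of which passed.

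The probe was printed on 10 spots, all well above background on every array. The SD between spots within an array ran from 0.059 to 0.164 and covers the noise of repeat spots alone, and the SD between arrays was 0.479 in wild-type and 0.531 in mutant samples. Erythroid and megakaryocyte genes also lay higher, with a median difference of 0.48 over 29 genes, 27 of them above 0 and 0 past the threshold. Among all genes tested 1.55% passed as higher in the mutant. Their summed signal ran from 255 to 460 in wild-type and from 413 to 473 in mutant samples. The erythropoietin receptor Epor had a difference of 0.62 (adjusted p = 0.0600 in limma) and the platelet glycoprotein Gp1bb one of 0.34 (adjusted p = 0.0894). Relative to the mean of that list, Gata1 differed by -0.069 between genotypes, a description with no test. The part of these cells in the Gata1 values was not tested.

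Gata3, a factor of T cells, sympathetic neurons and the urinary tract, had the widest interval among the genes. Levels in wild-type pools 1 to 4 were -2.91, -1.90, -1.47 and -1.39, and those in mutant pools 1 to 4 were -2.23, -2.26, -1.52 and -2.66. Wild-type replicate 1 was the lowest of all 8 samples, and the other wild-type samples lay above at least 3 of the 4 mutant samples. Wild-type pools averaged -1.92 ± 0.70 (SD, n = 4) and mutant pools -2.17 ± 0.47 (SD, n = 4). They differed by -0.25 with an SE of 0.370 and a 95% interval of -1.10 to 0.60. The adjusted p was 0.838 from limma and the exact permutation p was 0.514. The difference was -0.59 without wild-type replicate 1 and -0.47 without mutant replicate 3, and -0.11, -0.077 and -0.089 without wild-type replicate 3, wild-type replicate 4 and mutant replicate 4. With array weights it was -0.61. None of these passed.

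Of 16 neural crest and sympathetic genes tested out of 19, 4 fell, none rose and 12 did not pass, with a median of -0.65. Ret and Slc6a2 were among those too dim to test. Over all genes tested, 3.82% fell and 1.55% rose. Those that fell included the crest and glial factor Sox10 (-1.54), the tyrosine hydroxylase Th (-1.41) and the crest factor Foxd3 (-0.99). The mean level of this list ran from -1.14 to -0.77 in wild-type and from -1.69 to -1.40 in mutant samples, its summed signal overlapped between them (14.8 to 19.5 and 13.9 to 18.6), and its part in the Gata3 values was not tested. Relative to the mean of this list Gata3 differed by 0.36, a description with no test. Of 12 lymphoid genes, Cd3d, Cd3g, Il7r, Rag1 and Il2ra were too dim to test, none rose, and the median difference of the 7 tested was 0.13.

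**Figure D2:**
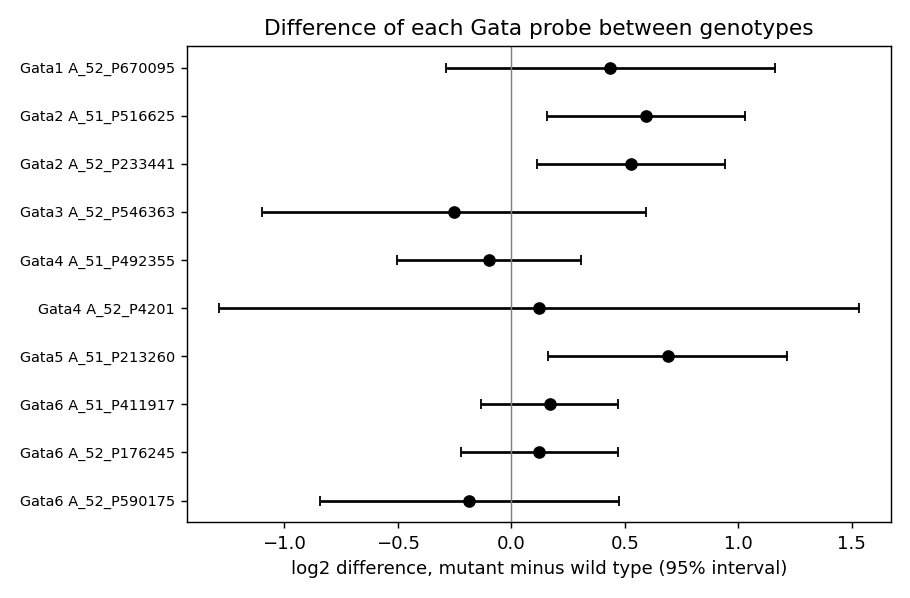
Log2 difference of each Gata probe between 4 mutant and 4 wild-type samples (x axis) with its 95% interval from limma, for the 10 probes (y axis). The intervals of the 2 Gata2 probes and the Gata5 probe lie above 0 before adjustment, and those of the other 7 probes include 0.

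Whether the Gata genes differed from one another was tested on the log2 ratio of each pair within an array, over 15 pairs. Gata5 moved up relative to Gata3 by 0.94 and relative to Gata4 by 0.79, and the groups were separate for both pairs (exact permutation p = 0.0286, which is as low as 4 against 4 arrays allow). After adjustment over the 15 pairs the lowest p was 0.143, so no pair passed. The difference between Gata2 and Gata5 was -0.096 and that between Gata4 and Gata6 was -0.27 (exact permutation p = 0.686 and 0.257).

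The epithelial and progenitor genes measured beside Gata4 and Gata6 mostly fell. Of 31 general epithelial genes tested, 25 fell, none rose and 6 did not pass, with a median of -2.04. Of 22 progenitor genes 17 fell, 1 rose and 4 did not pass, with a median of -2.09. Over all genes tested, 3.82% fell and 1.55% rose. The summed epithelial signal ran from 172 to 238 in wild-type and from 85.7 to 107 in mutant samples. In the same samples Pdx1, which is needed for the pancreas to form, fell by 3.08, and Nkx6-1, Nkx2-2 and the acinar factor Rbpjl fell by 3.66, fell by 3.03 and fell by 3.05. Onecut2, a liver and pancreas factor, was the progenitor gene that rose, by 1.83 (adjusted p = 0.00805 in limma), and was named after its value was seen.

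The levels of Gata genes were also taken minus the mean level of a list on the same array, a quantity chosen after seeing the data. It is a description with no test, because the lists were chosen with earlier results of these data known. The fall of the epithelial and progenitor lists was among those results: their means fell by 1.74 and fell by 1.94. Relative to the epithelial list, Gata6 lay between 1.49 and 2.14 in wild-type and between 3.08 and 4.28 in mutant samples, a change of 1.90. With normexp background correction this change was 1.56. Gata4, on a dim probe, lay between -4.710 and -3.999 in wild-type and between -3.37 and -2.39 in mutant samples, a change of 1.64. With normexp background correction that change was 1.26. Relative to the progenitor list the changes were 2.11 for Gata6 and 1.84 for Gata4. Gata1, Gata2, Gata3 and Gata5 lay higher relative to the epithelial list by 2.17, 2.33, 1.48 and 2.42, so this was not particular to Gata4 and Gata6.

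**Figure D3:**
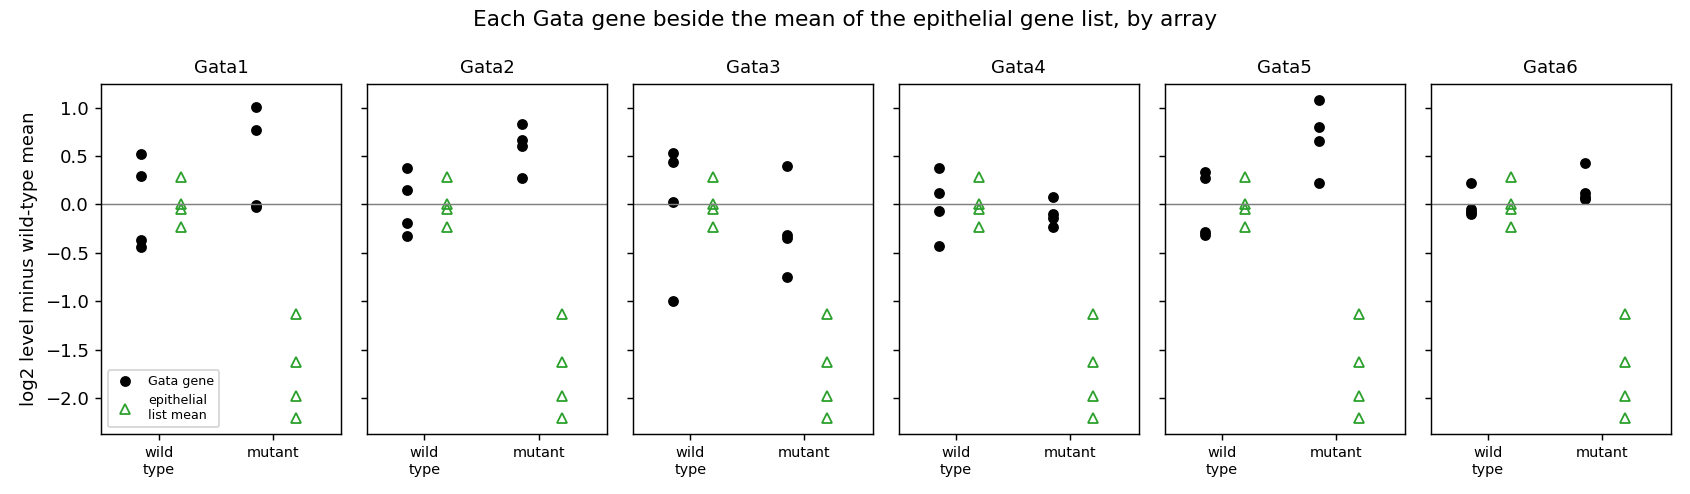
Log2 level of each Gata gene (filled circles) and of the mean of 31 epithelial genes (open triangles), each minus its wild-type mean (y axis), on 4 wild-type and 4 mutant arrays (x axis). The epithelial mean is lower on all 4 mutant arrays, and the mutant values of each Gata gene lie above the epithelial means of those arrays.

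Mesenchyme and mesothelium, where Gata4 and Gata6 are also known to be made, had higher markers in the mutant samples. Among 24 genes of mesenchyme there were 6 that rose, 0 that fell and 18 short of the threshold (median 0.59). Over all genes tested, 1.55% rose and 3.82% fell. The risers included the spleen factor Tlx1 (1.04), Bapx1, also called Nkx3-2 (0.91), the growth factor receptor Pdgfra (0.80) and the matrix gene Postn (0.73). The summed signal of the list ran from 318 to 398 in wild-type and from 455 to 600 in mutant samples. The bright gene Col1a2, at mean log2 levels of 6.69 in wild-type and 7.36 in mutant samples, weighs heavily in this sum. Of 13 mesothelium genes 2 rose, Bnc1 (0.94) and Upk1b (0.63), none fell and 11 did not pass (median 0.67), and their summed signal ran from 18.7 to 19.5 in wild-type and from 24.9 to 34.5 in mutant samples. The part of these cells in the Gata4 and Gata6 values was not tested.

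Of 22 listed cofactors of Gata proteins 21 were tested, and Tbx20 was too dim. There were 2 that rose, 0 that fell and 19 that did not pass, where 1.55% of all genes rose. Of the 21, 18 lay above 0, with a median of 0.18, and the mean level of the list ran from 0.47 to 0.59 in wild-type and from 0.69 to 1.01 in mutant samples. Zfpm2, or Fog2, which binds Gata4 to Gata6, rose by 0.82 (SE 0.138, adjusted p = 0.0160 in limma), and the muscle and endothelial factor Mef2c rose by 0.56 (SE 0.0948, adjusted p = 0.0161). Zfpm1, or Fog1, the partner of Gata1, had a difference of -0.27 (adjusted p = 0.488). The largest differences of the list were those of Nkx2-5 (1.16), also a gene of the mesenchyme list, and Hand1 (0.91). Neither passed (adjusted p = 0.131 and 0.122 in limma). The blood and endothelial partners Tal1, Lyl1 and Lmo2 had differences of 0.40, 0.57 and 0.30, and none passed (adjusted p = 0.0925, 0.0586 and 0.750). Gatad1, Gatad2a and Gatad2b, which carry a single Gata-type finger, had differences of -0.12, -0.035 and 0.18.

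The genes with the most similar profiles were sought over the 8 arrays, by the root mean square distance of log2 values from which each gene's own mean was taken, among 14188 genes. For Gata2, whose own values had a root mean square deviation of 0.383, they were Slc11a1 (0.0982), a metal transporter of macrophages, Tie1 (0.100), a receptor of endothelium, and Rab32 (0.104). For Gata5, with 0.460, they were Ccl4 (0.100), Selplg (0.153) and Hsd11b2 (0.163). For Gata1, with 0.489, they were Smpx (0.145), Chrm1 (0.204) and Cldn13 (0.209). For Gata3, with 0.533, they were Lct (0.286), Dhx58 (0.288) and Trim6 (0.318), the most distant of the 6 sets. For Gata4, with 0.226, and Gata6, with 0.163, deviations were small and the nearest genes were Lacc1 (0.0927), Tmem143 (0.124) and Tmem91 (0.124), and Dync1li2 (0.0587), Wasf1 (0.0710) and Wdr26 (0.0736). The distances share the arrays and their normalization and are a description only.

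Within slides, each of which held 1 or 2 arrays of a genotype, the sign held for Gata2, Gata5 and Gata6. Gata2 differed by 0.68, 0.66 and 0.58 within slides 1, 2 and 3, which is close to its pooled difference on every slide. Gata5 differed by 1.37, 0.18 and 0.68, and Gata6 by 0.47, 0.15 and 0.053. Gata1 differed by 0.37, -0.029 and 0.85, Gata3 by 0.37, -0.98 and -0.11, and Gata4 by 0.33, -0.40 and -0.26. With slide as a fixed block no Gata gene passed either.

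**Figure D4:**
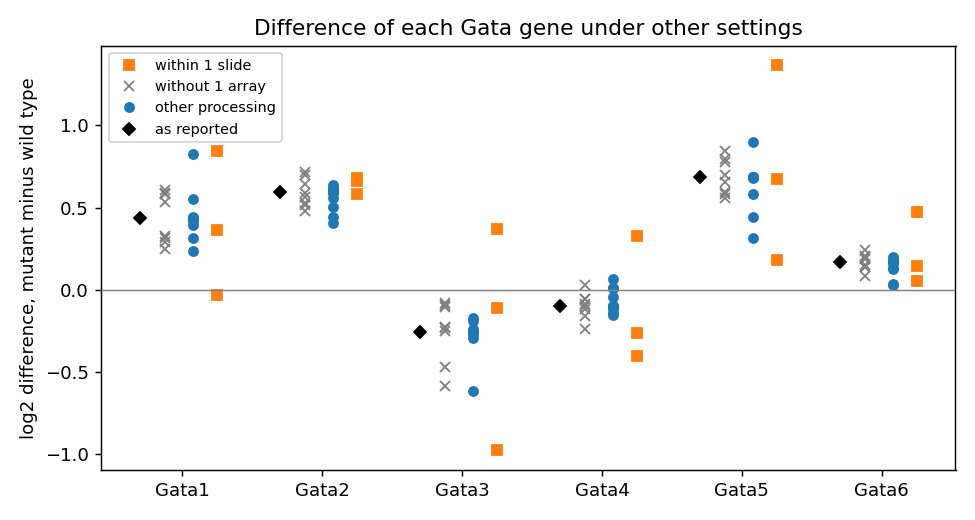
Log2 difference between mutant and wild-type samples (y axis) for each Gata gene (x axis) as reported (diamonds), without 1 array (crosses), under other processing (circles) and within 1 slide (squares). Gata2, Gata5 and Gata6 stay above 0 in all of them. Gata4 lies on both sides of 0, and so do Gata1 and Gata3, each through 1 slide.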

How the data were processed

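Gene expression was measured on 8 single-colour Agilent arrays, 4 per genotype, from 250 ng of RNA each. The authors scanned them with Feature Extraction 9.5.3.1, per the file headers. Its deposited processed signal is a linear intensity: local background was removed, dim spots received surrogate values, and arrays were not scaled to each other. Raw spot and background brightness and the quality flags were deposited beside it. The deposited value table holds quantile-normalized linear intensity values (median 227 on every array), matched to spots by row number. It follows the mean signal with rank correlations of 0.999 or more, while its background method is not given in the sources used here. The submitters' processing notes name limma.

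Log2 processed signals of non-control spots without outlier flags had the 75th percentile of the array subtracted and were averaged per probe. Of 41174 probes, 27389 were well above background (on at least 50% of their spots) on at least 4 arrays and were tested, and each of 18506 genes was represented by its kept probe of highest mean signal. Probes were named by RefSeq accession (23374), by another probe of the name (4500) or by the file (13300). The genotypes were set against each other in limma 3.58.1 under R 4.3.3 (functions lmFit and eBayes). The tests were two-sided, p-values were adjusted by Benjamini-Hochberg over every gene or every probe tested, and the threshold was 0.05. The script was first tested on simulated data. Intervals are 95% intervals for a single feature, unadjusted. Exact permutation tests were two-sided over 70 assignments. The number of arrays limits the precision. The members, the 13 gene lists and the rule for naming genes (every Gata probe, up to 4 called genes of a list or its 2 lowest p-values, and 3 nearest profiles) were chosen with earlier results of these data known. A list's other genes are named where a count of absent markers needs them or, for cofactors, after their values were seen. Alternatives covered background correction, normalization, the authors' table, filters, probe choice, slide, replicate number, array weights and leaving out each array. Some genes of the neural and lymphoid lists are not reported here by name.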

Additional observations from a re-analysis of the deposited data

Results flagged for a closer look

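Of 20 groups of 4 values, 1 for each Gata probe and genotype, 1 held a sample far from the others. Wild-type replicate 4 stood at 3.102 on the Gata6 probe A_51_P411917, while the other 3 wild-type samples lay between 2.79 and 2.84. The gap was 0.842 of the whole range of the group, above Dixon's critical value for a group of this size. Chance flags about 1 in 20 such groups. Without this array the Gata6 difference was 0.24, and leaving out 1 array at a time gave 0.083 to 0.24.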

How the results depend on the processing

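No Gata gene or probe passed in any of the alternatives run as a test, and Gata1, Gata2, Gata3, Gata5 and Gata6 kept their sign in all 19. The lowest adjusted p in limma over these was 0.0789 for Gata2 and 0.0695 for Gata5, whose differences ran from 0.41 to 0.72 and from 0.32 to 0.90. Gata4 changed sign after quantile normalization (0.063), with the mean of its probes (0.012) and with array weights (0.0089), and ran from -0.24 to 0.027 on leaving out 1 array. Its probe A_51_P492355 gave 0.063 and 0.041 with quantile normalization and array weights and -0.24 to 0.027 without 1 array. Its probe A_52_P4201 gave -0.0033 with normexp, -0.32 and -0.053 with slide as a fixed and a random block, and -0.23 to 0.59 without 1 array. The Gata6 probe A_52_P590175 gave 0.081 after quantile normalization and -0.35 to 0.058 without 1 array. Differences within 1 slide moved by more than the SD for Gata3 (0.37 and -0.98 on slides 1 and 2), Gata4 (0.33 and -0.40), Gata5 (1.37 and 0.18) and Gata6 (0.47 on slide 1). Gata1 relative to erythroid genes ran from -0.25 to 0.10 without 1 array. The cause of these changes was not tested.

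Over all genes, 994 passed (287 higher, 707 lower). The count was 419 with no filter on dim probes, where 27828 genes were tested, 1536 with slide as a random block, 1713 with array weights and 395 to 971 without 1 array. It was 506, 657, 495 and 395 without wild-type replicates 1 to 4, and 412 and 449 without mutant replicates 1 and 2. With the authors' own values there were 524 higher and 732 lower calls. With the replicate number as a block 340 genes and 0 Gata genes passed. Same-numbered samples share only a number: the correlation of their deviations ran from -0.35 to 0.088, and no sample correlated best with its own number. Signal near background limits Gata4, Gata5 and the dimmest Gata6 probe. The Gata1 probe was dim as well, and its difference was 0.44 as reported and 0.23 with normexp background correction.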

Other observations

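Hedgehog pathway genes, which pancreatic Gata4 and Gata6 are known to restrain, moved in both directions. Of 13 tested, the inhibitor Hhip passed as lower in the mutant but was well above background on 5 of 8 arrays, so no size is given, while the co-receptors Boc and Gas1 rose by 0.77 and by 0.72 and the transcription factor Gli3 rose by 0.62. In all 4 rose, 1 fell and 8 did not pass, with a median of 0.26, and the ligand Shh was too dim to test. Among all genes tested 1.55% rose and 3.82% fell. Of 15 liver genes tested, Alb, Itih2 and Afp rose by 3.48, by 2.60 and by 2.23, the retinol carrier Rbp4 fell by 1.05, and 11 did not pass, with a median of 0.36.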
